A study of Petunia x hybrida with 12 samples.

Results

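Of the 35812 gene IDs counted in petunia pistils, 91 are described here as genes induced over 32-fold at flower opening. They were chosen from these data by 3 limits, on their level after opening, on their ratio to the day before it and on a pair of WT libraries. The mean over the 6 day +1 libraries had to reach 10 CPM (counts scaled to a library total of 1000000), and that mean plus 0.1 had to be at least 32 times the day -1 mean plus 0.1. Of the 358 IDs that met both limits, 267 were then left out because their level in WT day +1 replicate 3 was not under 2 times that in WT day +1 replicate 2. The change between the days therefore chose the members, and it is described here without a test.

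The libraries came from polyadenylated RNA of whole pistils of Petunia x hybrida cultivar Mitchell, collected at 14:00. There were 4 groups of 3 libraries: plants labelled tps1 at day +1, WT at day +1, tps1 at day -1 and WT at day -1. The tps1 plants carry RNA interference against the terpene synthase gene PhTPS1, and the groups include no plants with a control construct. The sources used here do not give the promoter of the construct, the number of lines or the plants behind each library. The p-values set a difference between groups against the spread of these libraries, which could be technical. Whether that spread covers differences between plants or lines is not known.

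The pistil holds the stigma, where pollen lands, the style, through which pollen tubes grow, and the ovary. Around flower opening it passes from the growth of the bud to readiness for pollination. PhTPS1 makes sesquiterpenes that reach the petunia pistil as volatiles, and KAI2, named in the series title, is a receptor of the family that also perceives karrikins and related butenolides. The deposited table pairs its IDs with no gene names and no annotation was used here, so members are named by ID and carry no function, sequence or position. The targeted gene was not looked up, the tissue was not checked against marker genes, and reads split between near-identical copies could not be recognised. In whole pistils, fewer cells of a type and less RNA per cell cannot be told apart.

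Total counts ran from 21356182 to 29614270 in tps1 and from 19576755 to 22080654 in WT at day +1, and from 25625763 to 29757361 in tps1 and from 21058118 to 30357964 in WT at day -1. The 267 IDs left out by the limit on the WT libraries held 0.602 to 5.02% of the counts of the day +1 libraries, and 0.27% of WT day -1 replicate 2 against at most 0.00589% of any other day -1 library.

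The 91 members made up about 1% of the pistil's counts after opening and a trace of them before it. At day +1 their share was 0.996% ± 0.035 for tps1 and 1.07% ± 0.107 for WT (SD, n = 3 each). At day -1 they took 0.0106% ± 0.00696 in tps1 and 0.00952% ± 0.00273 in WT. The 3 members with the highest CPM made up 42.1% of the summed day +1 CPM and the first 10 made up 64.3%. Gene lengths were not used, so CPM ranks reads and not transcripts.

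Levels at day +1 were spread over more than 2 orders of magnitude, with a median of 33.7 CPM, a lowest of 10.2 CPM and a highest of 2015 CPM. Between 10 and 20 CPM lay 28 members, between 20 and 50 CPM 29, between 50 and 100 CPM 14, between 100 and 200 CPM 10, between 200 and 500 CPM 7, and above 500 CPM 3. At day -1 the median was 0.256 CPM. A mean under 0.1 CPM was found for 27 members, a mean from 0.1 to under 1 CPM for 41 and a mean of 1 CPM or more for 23. In every one of the 91, the lowest of the 6 day +1 values lay above the highest of the 6 day -1 values, as the rule favours.

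**Figure D1:**
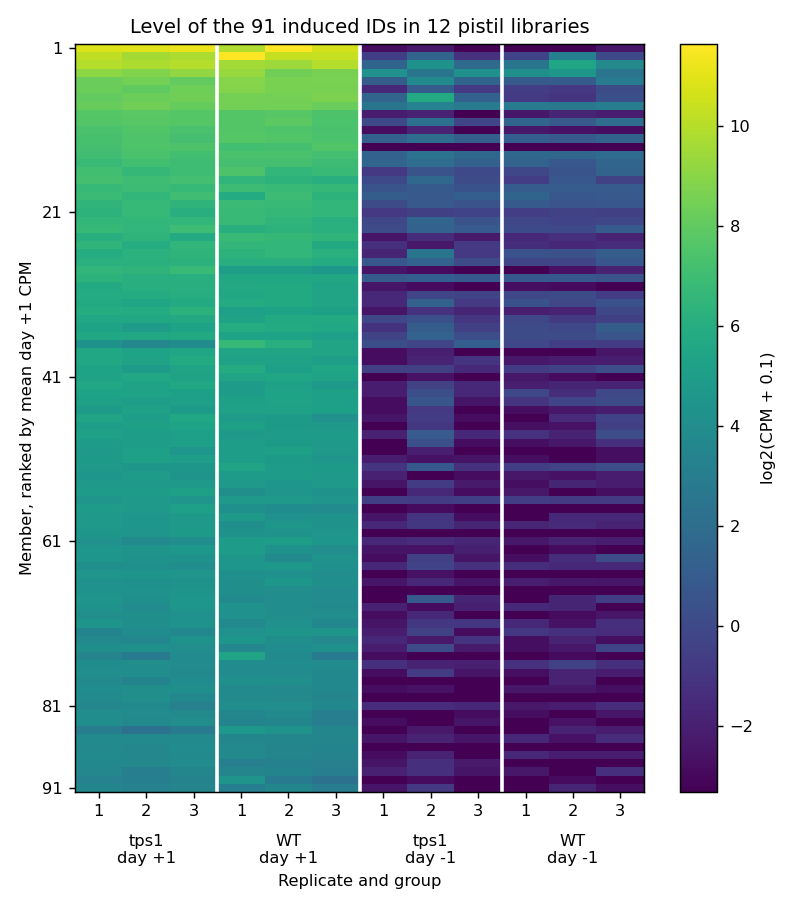
Each row is 1 of the 91 members, ranked by mean day +1 CPM, and each column is 1 library, with replicates 1 to 3 of tps1 day +1, WT day +1, tps1 day -1 and WT day -1. Colour gives log2(CPM + 0.1). The day +1 columns are brighter in every row, and tps1 day -1 replicate 2 is the brightest day -1 column for many rows, with a median member at 0.47 CPM.

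With 0.1 CPM added to both means, the day +1 to day -1 ratio had a median of 78.5 over the members and quartiles of 47.4 and 146. It lay from 32 to under 64 for 37 members, from 64 to under 128 for 27, from 128 to under 256 for 16, from 256 to under 1024 for 8 and at 1024 or more for 3. Taken by genotype, the median ratio was 79.3 in tps1 and 83.7 in WT, and 87 members reached 32 in each genotype alone.

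Peaxi162Scf00418g00810 had the highest CPM of the members and the largest ratio. At day +1 it stood at 1877, 2046 and 2339 CPM in the 3 tps1 libraries and at 936, 3217 and 1673 CPM in the 3 WT libraries. At day -1 it had 6 counts over all 6 libraries together. The tps1 values at day +1 lay close together and inside the wide WT range, so the genotypes overlapped.

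Peaxi162Scf00399g00038 had the next highest CPM. At day +1 it reached 1207, 801 and 883 CPM in tps1 and 3116, 1277 and 1352 CPM in WT, where replicate 1 stood far above the other libraries. At day -1 it lay at 0.585, 2.86 and 0.346 CPM in tps1 and at 0.712, 8.86 and 0.889 CPM in WT, with replicate 2 the highest library of both groups. Every tps1 value at day +1 was below every WT value, but the difference was not past the threshold (log2 fold change -1.01, SE 0.91, with an edgeR adjusted p of 0.958).

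No count at all was recorded at day -1 for 5 members. A limit of 3 counts over the 155331418 counts of the 6 day -1 libraries corresponds to 0.0193 CPM, so these members were at least 652-fold to at least 8558-fold higher at day +1 (counting error only). The one with the highest CPM, Peaxi162Scf00294g00411, stood at 152, 182 and 175 CPM in tps1 and at 139, 150 and 194 CPM in WT at day +1. Another 4 members had 1 to 3 counts over the 6 day -1 libraries, whereas 53 had at least 1 count in each of them.

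**Figure D2:**
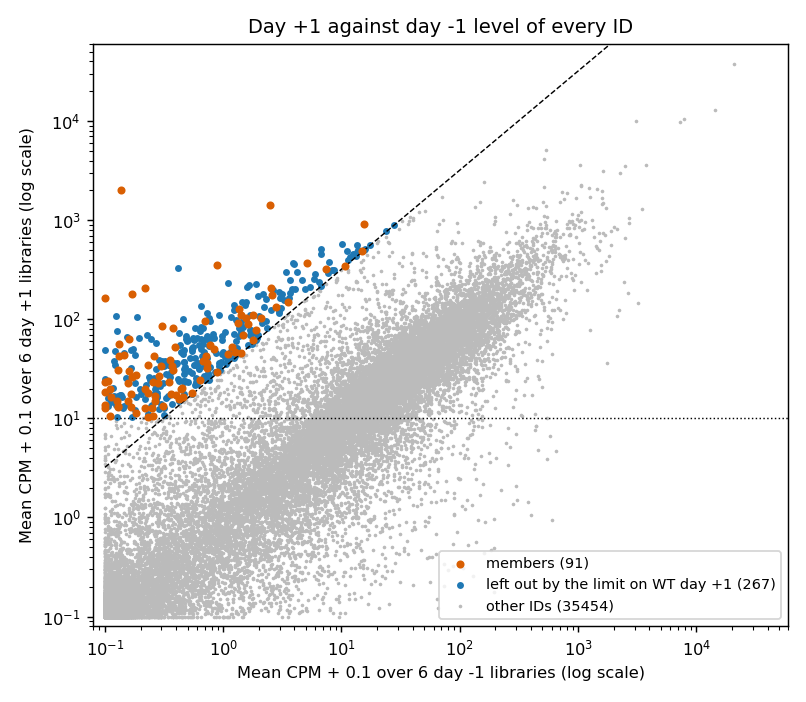
Each point is 1 ID, with its mean CPM + 0.1 over the 6 day +1 libraries on the vertical axis and over the 6 day -1 libraries on the horizontal axis, both on log scales. The dashed line marks a ratio of 32 and the dotted line 10 CPM at day +1. The 91 members and the 267 IDs left out lie in the same region of the plot, and the limit that parts them is on neither axis.

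The limits on level and fold cut through a continuous range, while the limit on the WT libraries fell in a gap. By ratio, the members just inside were Peaxi162Scf00491g00110 at 32.1 and Peaxi162Scf00692g00524 at 32.4, and the IDs just outside had 31.95 and 31.2. By level, Peaxi162Scf00070g00013 was inside at 10.2 CPM, and the nearest ID outside stood at 9.91 CPM. For WT day +1 replicate 3 over replicate 2, the highest ratio of a member was 1.44, in Peaxi162Scf00210g00163, and the lowest ratio left out was 3.73.

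The members also differed from the IDs left out in libraries that this limit did not use. Between tps1 day +1 replicates 1 and 2, the median log2 ratio was 0.03 for the 76 members with a WT replicate 3 to 2 ratio under 1, and 0.21 for the 15 members at 1 to 1.44. For the 266 left-out IDs at a ratio of 4 or more it was 0.90, with quartiles of 0.86 and 0.95. Over all 12386 IDs at 10 CPM or more at day +1 it was -0.07. In WT day -1 replicate 2, those 266 IDs had a median of 2.57 CPM, against 0.0467 CPM for the median of replicates 1 and 3. The 76 members with a ratio under 1 were at 0.165 CPM there, against 0.194 CPM. These are descriptions of groups defined by their values, and no test was made.

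**Figure D3:**
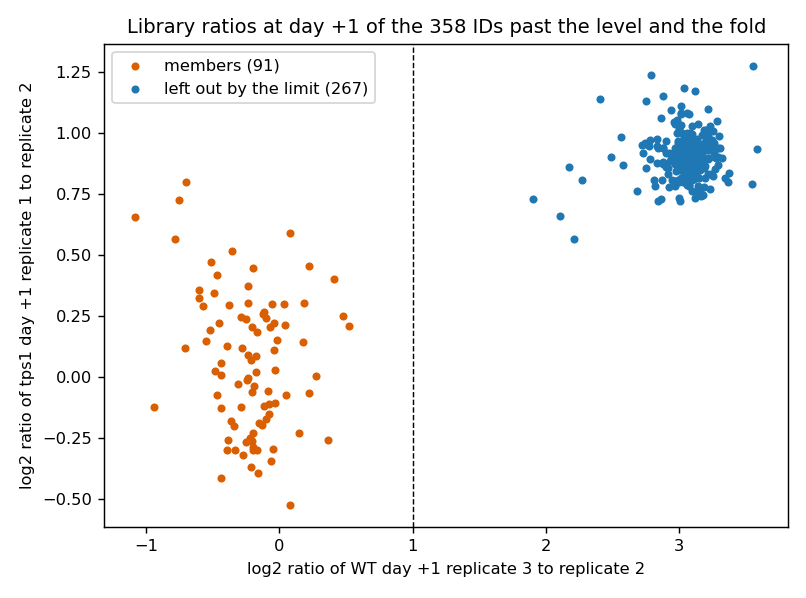
Each point is 1 of the 358 IDs past the level and the fold. The horizontal axis gives the log2 ratio of WT day +1 replicate 3 to replicate 2, with a dashed line at the limit of 2 times, and the vertical axis the log2 ratio of tps1 day +1 replicate 1 to replicate 2. The 91 members lie left of the line and spread around a tps1 ratio near 0, while the 267 left-out IDs form a tight cloud around 0.90.

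The members spread widely among the day +1 libraries. Their coefficient of variation over the 6 libraries had a median of 15.9% and quartiles of 12.4 and 23.3%, against a median of 7.88% for all 12386 IDs at 10 CPM or more. For the 214 IDs that passed the same level and limit at a ratio of 8 to under 32, the median was 14.0%. The differences between these sets were not tested. Within a group of 3 libraries the members' median was 10.8% in tps1 and 13.6% in WT.

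The steadiest member was Peaxi162Scf00067g00027, at 15.3, 17.0 and 15.1 CPM in tps1 and 15.7, 15.8 and 14.96 CPM in WT at day +1. Peaxi162Scf00128g00216 followed, at 47.7, 41.2 and 44.6 CPM in tps1 and 42.3, 41.9 and 43.3 CPM in WT. Both sets of 6 values lay within 1.16-fold of each other. The most variable was Peaxi162Scf00176g00161, at 11.1, 7.02 and 14.9 CPM in tps1 and 43.2, 14.4 and 6.84 CPM in WT. Its WT values spanned the tps1 values on both sides, with replicate 1 at the top and replicate 3 at the bottom. Next in spread was Peaxi162Scf00057g00183, whose values are given with the genotypes.

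WT day +1 replicate 1 was the highest of the 6 day +1 libraries for 29 of the 91 members, against 14.8% of the 12386 IDs at 10 CPM or more. It exceeded the mean of the other WT replicates by over 2-fold for 3 members. WT day +1 replicate 3 was the lowest library for 41 members, against 36.8% of those IDs. The limit on that library's ratio to replicate 2 bears on this count, and the library also held the most counts of the left-out IDs. The part of either in the members' lower values was not tested.

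The first comparison that the choice of members did not use directly is tps1 against WT at day +1. It asks whether the genes switched on at opening reached the same level in pistils of plants that carry the PhTPS1 RNA interference. Of the 91 members, 1 rose and 1 fell in tps1, where 0.400% of all 21239 IDs tested were called in either direction, 0.207% higher and 0.193% lower (edgeR quasi-likelihood test, adjusted p under 0.05). Peaxi162Scf00542g00017 rose 3.05-fold and Peaxi162Scf00057g00183 fell 4.54-fold. The limit on WT day +1 replicate 3 over 2 was part of the rule, so the WT values at day +1 are not wholly free of the choice.

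Peaxi162Scf00542g00017 reached 92.4, 84.5 and 109 CPM in tps1 and 34.1, 33.5 and 25.4 CPM in WT at day +1. The lowest tps1 library was well above the highest WT library. The means were 95.2 ± 12.3 CPM in tps1 and 31.0 ± 4.81 CPM in WT (SD, n = 3 each), a log2 fold change of 1.61 with an SE of 0.23 (edgeR adjusted p = 0.0155). Before opening it had 9 counts over the 6 libraries and 0.0372 ± 0.0391 CPM in tps1 against 0.0812 ± 0.0899 CPM in WT, so a genotype difference was not detectable there at this depth.

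Peaxi162Scf00057g00183 stood at 20.97, 12.03 and 14.96 CPM in tps1 and at 105, 69.7 and 43.0 CPM in WT at day +1. All 3 tps1 values were below all 3 WT values, which differed among themselves by more than 2-fold. The means were 15.99 ± 4.55 CPM in tps1 and 72.5 ± 31.0 CPM in WT (SD, n = 3 each), a log2 fold change of -2.18 with an SE of 0.37 (edgeR adjusted p = 0.0341). Before opening the order was the other way, at 1.13, 0.773 and 2.11 CPM in tps1 and 0.807, 0.593 and 0.533 CPM in WT, with overlapping values and no call (edgeR adjusted p = 0.675). With 0.1 CPM added, its ratio of day +1 to day -1 was 11.2 in tps1 and 97.5 in WT.

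These counts changed when single libraries were left out. The count of called members was 0 without tps1 day +1 replicate 1 or 3 and without WT day +1 replicate 1 or 2, fits in which 0.122 to 0.214% of all IDs were called. It was 1 without tps1 day +1 replicate 2, WT day +1 replicate 3, tps1 day -1 replicate 1 or any WT day -1 library, against 0.232 to 0.414% of all IDs. Without tps1 day -1 replicate 2 it was 3, against 0.590%. Peaxi162Scf00542g00017 kept its direction in all 20 alternatives, with log2 fold changes of 1.505 to 1.695 and adjusted p up to 0.108. Peaxi162Scf00057g00183 did so with -2.45 to -1.80 and adjusted p up to 0.222. Of the 20 alternatives, 14 called Peaxi162Scf00542g00017 and 9 called Peaxi162Scf00057g00183. DESeq2 called 9 members (6 higher, 3 lower), against 1.49% of all IDs, and limma-voom called 6 (4 higher, 2 lower), against 0.424%. No member was called with the replicate number as a block, against 0.245% of all IDs. With the day +1 libraries alone 4 were called, against 0.979%. Without both day -1 libraries numbered 2, a setting added after the data were seen, there were 6, against 0.794%.

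Besides those 2, DESeq2 and limma-voom both called 4 members that the edgeR test did not call, named here after that was seen. Peaxi162Scf01416g00118 stood at 82.5, 70.7 and 69.3 CPM in tps1 and at 50.2, 48.9 and 47.6 CPM in WT at day +1 (edgeR adjusted p of 0.0707 for a log2 fold change of 0.59). Peaxi162Scf00253g01614 stood at 31.0, 26.2 and 35.5 CPM in tps1 and at 17.9, 15.7 and 14.6 CPM in WT (edgeR adjusted p of 0.12 for a log2 fold change of 0.93). In both, the tps1 libraries lay above all WT libraries.

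Peaxi162Scf00618g00123, at 62.2, 59.3 and 77.8 CPM in tps1 and 35.1, 41.7 and 35.9 CPM in WT, also showed no overlap (edgeR adjusted p of 0.503 for a log2 fold change of 0.81). Its SE was 0.31 in that fit of both days and 0.11 with the day +1 libraries alone, where edgeR called it (adjusted p = 0.0368). Peaxi162Scf01141g00013 had the opposite order, at 19.3, 13.9 and 16.4 CPM in tps1 and 29.9, 32.6 and 22.9 CPM in WT (edgeR adjusted p of 0.0887 for a log2 fold change of -0.79). Its tps1 libraries lay below all WT libraries.

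**Figure D4:**
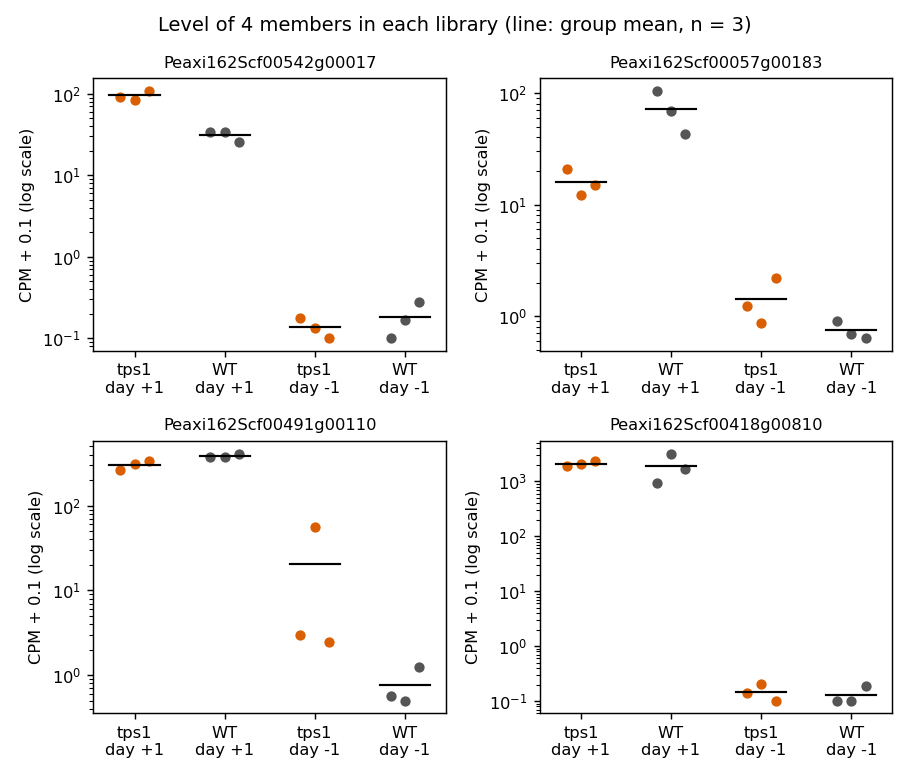
CPM + 0.1 on a log scale of 4 members in every library, with tps1 (orange) left of WT (grey) on each day and a line at the group mean (n = 3). Peaxi162Scf00542g00017 is higher and Peaxi162Scf00057g00183 lower in tps1 at day +1, Peaxi162Scf00491g00110 is led at day -1 by tps1 replicate 2 at 56.6 CPM, and Peaxi162Scf00418g00810 overlaps between the genotypes at day +1.

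For most members the genotype means at day +1 lay within 2-fold of each other, with differences in both directions. Over all 91 the ratio of tps1 to WT mean CPM had a median log2 value of 0.09, with quartiles of -0.20 and 0.30. Over the 12386 IDs at 10 CPM or more the median was 0.01, with quartiles of -0.07 and 0.11. The members' quartiles thus lay further apart than those of these IDs, a difference that was not tested. The mean was higher in tps1 for 55 members, or 60.4%, and lower for 36. It was higher in tps1 for 54.4% of the 12386 IDs, and for 45.3% of the 214 IDs at a ratio of 8 to under 32. The genotype means differed by over 2-fold upwards for 1 member and downwards for 2, shares of 1.1% and 2.2%. Over the 12386 IDs the share was 0.226% in each direction.

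At day +1, 3 tps1 values stood clear of 3 WT values for 35 members, or 38.5%, where 19.1% of all tested IDs showed no overlap. Of these, 23 members were higher in tps1, against 10.5% of all tested IDs, and 12 were lower, against 8.60%. In the edgeR test 11 of the 91 members, or 12.1%, had an unadjusted p under 0.05, against 7.80% of all tested IDs. That number depended on the fit. It was 35 with limma-voom (against 1593 of 21239 IDs) and 21 with DESeq2 (against 1682 of 21239). With edgeR it was 36 in the day +1 libraries alone (against 3560 of 19915) and 8 with the replicate block (against 1561 of 21239). All tested IDs are not a matched set for these shares. The members had to pass a level at day +1 and a limit on a pair of WT day +1 libraries. Neither was asked of all tested IDs, and that limit bears on the spread of the WT values. The shares therefore cannot show whether members differed between the genotypes more often than other IDs, and their difference was not tested.

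The same comparison at day -1 concerns the traces of these transcripts before opening. Most members could be tested in this comparison through their day +1 counts, since in a fit of the day -1 libraries alone 33 of the 91 passed the filter on low counts. In that fit 0 of the 33 were called, against 0.0201% of all tested IDs. In the fit of all libraries no member was called, against 0.184% of all tested IDs, and little can be read from it for members with few counts. The edgeR test gave an unadjusted p under 0.05 for 7 of the 91, or 7.69%, against 7.71% of all tested IDs, limma-voom called 0 (against 0.160% of all tested IDs) and DESeq2 called 1 (against 1.88%). Counts were few, since all 91 members together held 1608, 5533 and 1776 counts in tps1 and 1507, 3797 and 2005 counts in WT.

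The day -1 count changed with a single library, tps1 replicate 2. Without it 4 members were called, 1 higher and 3 lower in tps1, where 1.14% of 21367 tested IDs were called. Without both libraries numbered 2, a setting added after the data were seen, there were 6, against 1.71%. Peaxi162Scf00491g00110 was the higher one of the 4 (log2 fold change 1.97, edgeR adjusted p = 0.0327). Peaxi162Scf00439g00071, Peaxi162Scf00491g00025 and Peaxi162Scf00083g00156 were the lower ones, with log2 fold changes of -3.52, -2.17 and -1.76 and edgeR adjusted p-values of 0.0179, 0.0307 and 0.0324. These 4 are named because this call was seen, not by a rule set beforehand.

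The lower 3 had a shared layout at day -1. Peaxi162Scf00439g00071 stood at 0.039, 1.51 and 0.0768 CPM in tps1 and at 0.38, 0.758 and 0.978 CPM in WT. Peaxi162Scf00491g00025 stood at 0.195, 5.58 and 0.461 CPM in tps1 and at 1.28, 1.22 and 2.00 CPM in WT. Peaxi162Scf00083g00156 stood at 0.898, 4.37 and 0.768 CPM in tps1 and at 2.90, 1.71 and 3.95 CPM in WT. In each, tps1 replicate 2 was above all WT libraries while the other tps1 libraries were below them all.

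The member that DESeq2 called at day -1 was Peaxi162Scf01044g00110, at 0.078, 0.302 and 0.115 CPM in tps1 and with no count in WT. Its edgeR adjusted p was 0.131. These values rest on few counts, and the highest of them was in tps1 replicate 2. This member is named because its call was seen, not by a rule set beforehand. At day +1 it stood at 12.8, 13.3 and 14.6 CPM in tps1 and at 8.43, 9.60 and 9.05 CPM in WT, again with no overlap (edgeR adjusted p = 0.578 with all libraries). It was called there by DESeq2 (adjusted p = 0.0217), and by edgeR in the day +1 libraries alone (adjusted p = 0.0295) and without both day -1 libraries numbered 2 (adjusted p = 0.0493). The other alternatives did not call it there, among them limma-voom, the replicate block and every fit with 1 library left out.

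Among the day -1 libraries, tps1 replicate 2 held more of the members' RNA than any other. Their summed level was 62.7, 186 and 68.2 CPM in tps1 replicates 1, 2 and 3, and 71.6, 125 and 89.1 CPM in WT replicates 1, 2 and 3. Of the 86 members with a count at day -1, 47 were highest in tps1 replicate 2, against 25.8% of the 22067 IDs at 0.1 CPM or more at day -1. These sides use unlike limits, since 64 members reached that level. The WT excess in replicate 2 came largely from the 3 members with the highest day +1 CPM, since without them the shares in WT replicates 1, 2 and 3 were 0.00653, 0.00692 and 0.00749%. In tps1 the corresponding shares were 0.00594, 0.0163 and 0.00644%, so there the excess of replicate 2 did not rest on those 3.

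Peaxi162Scf00491g00110 had the highest level of any member in tps1 day -1 replicate 2, and made up a large part of the 186 CPM summed over the members there. At day -1 it stood at 2.89, 56.6 and 2.38 CPM in tps1 and at 0.475, 0.395 and 1.16 CPM in WT. The tps1 values lay above the WT values also without replicate 2, and replicate 2 alone lifted the tps1 mean to 20.6 ± 31.1 CPM, against 0.675 ± 0.418 CPM in WT (SD, n = 3 each). With all libraries the difference was not called (log2 fold change 4.93, SE 1.17, with an edgeR adjusted p of 0.263). At day +1 it reached 266, 312 and 334 CPM in tps1 and 373, 372 and 413 CPM in WT, which do not overlap and were not called (edgeR adjusted p = 0.997). The fit gave each ID 1 estimate of spread over both days, so the day -1 values of this member entered its SE at day +1 (0.92). The lack of a call there does not show equal levels.

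For the 64 members with a mean of 0.1 CPM or more at day -1, tps1 replicate 2 stood at a median of 1.88 times the mean of the other tps1 libraries, and over 2-fold higher for 31 of them. Over all 22067 IDs at that level the median was 1.02, and 5.79% were over 2-fold higher. The IDs induced 8 to under 32 times had a median of 1.86 times in this library. The left-out IDs had a median of 1.00. In WT replicate 2 the left-out IDs stood high and the members did not, with medians of 0.874 for the members and 19.2 for the 230 left-out IDs at that level. The reason either library stands apart was not tested.

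**Figure D5:**
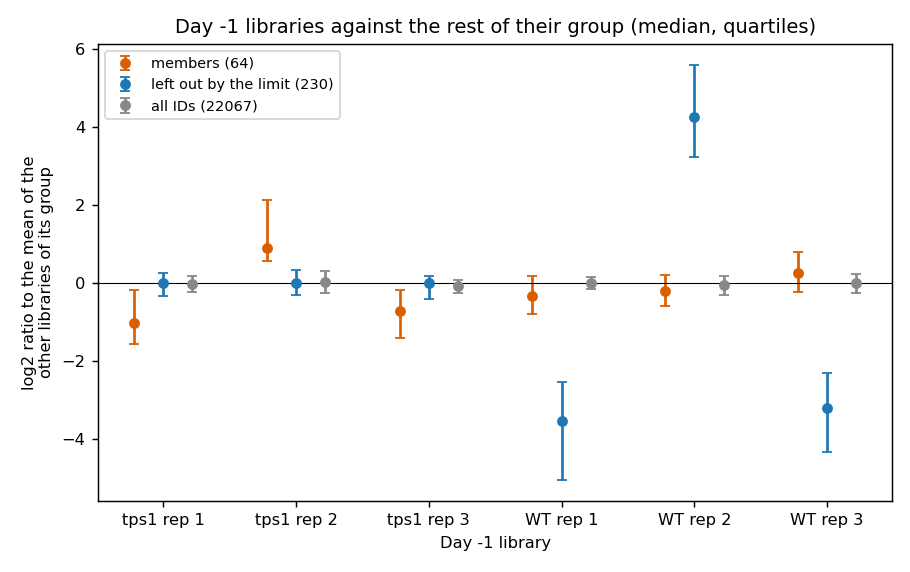
For each day -1 library, the log2 ratio of an ID to the mean of the other libraries of its group, as the median (point) and quartiles (bars) over 64 members, 230 left-out IDs and 22067 IDs in all with a mean of at least 0.1 CPM at day -1; 0.1 CPM was added to each level. The members are high in tps1 replicate 2 (0.91) and the left-out IDs in WT replicate 2 (4.26), while all IDs stay near 0.

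Whether the change between the days differed between the genotypes was tested as the difference of the 2 changes. No member was called in the edgeR test, where 0.00471% of all tested IDs were. That test gave an unadjusted p under 0.05 for 10 of the 91, or 11.0%, against 6.12% of all tested IDs. These shares were not compared by a test. Most members entered this contrast through their day +1 counts, since 33 of the 91 passed the filter in the day -1 libraries alone. Little can be read from it for members with few day -1 counts. For Peaxi162Scf00294g00411, which had no day -1 count, the SE was 76.6 on the log2 scale. DESeq2 called 1 member, Peaxi162Scf00057g00183, against 0.433% of all tested IDs, and limma-voom called 0, against 0%. For Peaxi162Scf00057g00183 the change in tps1 minus that in WT came to a log2 value of -3.21 with an SE of 0.62 (edgeR adjusted p = 0.27, and 0.0925 to 0.998 over the alternatives other than DESeq2, whose adjusted p was 4.58e-05). For Peaxi162Scf00542g00017 it was 2.67 with an SE of 0.99 (edgeR adjusted p = 0.804). A setting added after the data were seen left out both day -1 libraries numbered 2. It called 1 member, Peaxi162Scf00083g00156, at 2.06 (edgeR adjusted p = 0.0357), against 0.0470% of all tested IDs. Those libraries held this member's highest tps1 and lowest WT level at day -1, so the call rests on leaving both out. No planned edgeR fit called a member in this contrast.

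Position was not used by the rule, and the IDs carry a scaffold number. The 91 members lay on 84 scaffolds, 7 of which held 2 members each. In 2 cases the members were neighbouring rows of the table, so 4 members had a member next to them. Whether this is more than a set of this size would give was not tested. The neighbouring pair Peaxi162Scf00294g00411 and Peaxi162Scf00294g00412 had no count in any day -1 library. The second of them stood at 24.4, 22.1 and 28.4 CPM in tps1 and at 20.3, 19.8 and 22.4 CPM in WT at day +1. In both members the tps1 and WT ranges overlapped at day +1.

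The other neighbouring pair had counts before opening. Peaxi162Scf00111g00922 stood at 95.5, 94.9 and 97.7 CPM in tps1 and at 107, 89.4 and 66.0 CPM in WT at day +1. Peaxi162Scf00111g00923 stood at 9.77, 8.80 and 10.1 CPM in tps1 and at 21.5, 7.11 and 4.85 CPM in WT. In both the tps1 libraries lay close together and the WT libraries were further apart, with replicate 1 highest and replicate 3 lowest. These 2 pairs were chosen for their neighbouring rows after their values were seen, because 7 scaffolds tied for the most members.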

How the data were processed

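Raw read counts per ID in 12 libraries were used as deposited. Per the submitters' processing notes, cutadapt, TopHat2 and HTSeq were used by the authors; the sources used here do not give versions, genome build or strand setting. Columns were matched to samples through the sample descriptions. Levels are CPM on column totals. Tests used R 4.3.3 and edgeR 4.0.16: filterByExpr (minimum count 10) kept 21239 IDs with 99.95 to 99.97% of counts, including all 91 members; libraries were scaled by TMM; 1 quasi-likelihood model with 4 group means was fitted to all 12 libraries; p-values were adjusted by Benjamini-Hochberg over all tested IDs, with a threshold of 0.05. TMM moved the median day change of all tested IDs by 0.14 on the log2 scale in both genotypes relative to column totals. A standard error is the fold change over the square root of the F statistic, an approximation. The change between the days was fitted too, but its p-values are not reported, since it chose the members. The edgeR steps were tested on counts simulated from their own fit, with planted genotype differences. That test did not measure recovery for the members and did not cover DESeq2 or limma-voom.

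The members and lists were chosen with earlier results of these data known. Named IDs are, in each genotype contrast, the 2 members called higher and the 2 called lower with the smallest p, and as a description the 2 with the highest day +1 level, the largest ratio, the lowest and the highest coefficient of variation, those nearest a limit of the rule and those of the 2 scaffolds with the most members; others are said to be chosen after their values were seen. No gene list was used, since the table holds no names. Pairs of libraries of 1 group differed by more than counting noise (chi-square over degrees of freedom 8.14 to 115), so none was counted as a duplicate. Intervals and limits on counts cover counting error only. Alternatives were RLE scaling, no filter, DESeq2 1.42.0, limma 3.58.1 (voom), a replicate block, each day alone, each library left out and other limits in the rule. After seeing the data, 2 more were added: without both day -1 libraries numbered 2, and without the left-out IDs.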

Additional observations from a re-analysis of the deposited data

How the results depend on the processing

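In the reported fit 2 members were called between genotypes at day +1, against 0.400% of all IDs. The count was 9 with DESeq2 (1.49% of all IDs called), 6 with limma-voom (0.424%) and 4 with the day +1 libraries alone (0.979%). It was 6 without both day -1 libraries numbered 2 (0.794%). It stayed at 2 with RLE scaling (0.414%), no filter (0.318%) or without the left-out IDs (0.424%). With 1 library left out it ran from 0 to 3 (0.122 to 0.590% of all IDs). At day -1 the count was 0 in the reported fit (0.184%), 1 with DESeq2 (1.88%) and 6 without both libraries numbered 2 (1.71%). It was 0 to 4 with 1 library left out (0.0889 to 1.14%). In the day -1 libraries alone, 33 of the 91 members passed the filter. For the difference in day change the count was 0 in the reported fit (0.00471%). It was 1 with DESeq2 (0.433%), 1 without both libraries numbered 2 (0.0470%), and 0 to 0 with 1 library left out (0 to 0.0187%). DESeq2 gave no adjusted p for 1 member, Peaxi162Scf00491g00110, which its counts could therefore not include. With the replicate block the counts were 0, 0 and 0, against 0.245, 0.108 and 0% of all IDs. Same-numbered libraries did not deviate together in all cases (correlations across IDs of -0.122, 0.357 and -0.105 at day +1 and 0.121, -0.178 and -0.37 at day -1). Libraries with unlike numbers reached 0.476 at day +1 and 0.528 at day -1, so the numbers were not taken as pairs. These values do not settle whether any libraries were paired.

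The number of members (91) was 30 with 1 CPM added, 54 at a ratio of 64, 171 at a ratio of 16 and 358 with no limit on WT day +1 replicate 3 over 2. It was 88 to 395 with 1 library left out; 395 and 315 are without WT day +1 replicate 2 or 3, where that limit falls away. WT libraries alone gave 100 and tps1 libraries alone 96, of which 85 and 85 were among the 91. The median log2 ratio of tps1 to WT at day +1 (0.09) was 0.060 to 0.137 with 1 library left out. The members' share of counts ranged, with 1 library left out, from 0.979 to 1.01% in tps1 and 1.04 to 1.13% in WT at day +1, and from 0.00655 to 0.0127% in tps1 and 0.00803 to 0.0107% in WT at day -1. The causes of these changes were not tested. Depth limits the day -1 values, where 27 members averaged under 0.1 CPM.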

Other observations

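For 3 members the neighbouring row on the same scaffold was one of the 267 left-out IDs. Peaxi162Scf00399g00016, next to Peaxi162Scf00399g00038, averaged 75.2 CPM over the day +1 libraries and 0.0275 CPM over the day -1 libraries. Peaxi162Scf00176g00164, next to Peaxi162Scf00176g00161, averaged 66.6 CPM at day +1 and 0.0549 CPM at day -1. Peaxi162Scf01434g00014, next to Peaxi162Scf01434g00015, averaged 37.9 CPM at day +1 and 0.0184 CPM at day -1. Of the 169 neighbouring rows that were not members, 6 reached 10 CPM at day +1 with a ratio of at least 8, and 42 had no count at day +1.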
